A study of Caenorhabditis elegans with 2 samples.

Results

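The genes described here encode the translation initiation and elongation factors of Caenorhabditis elegans. They were chosen by name: every protein-coding gene of the nuclear chromosomes whose symbol begins with eif-, iff-, ife-, ifg-, ifet-, eef- or etf-, together with inf-1. The rule gave 41 of 19973 protein-coding genes. By name 33 were classed as initiation factors, 6 as elongation factors and 2 as eIF5A proteins, and 0 were named etf-. The initiation class takes every member name outside eef-, iff- and etf-, so it also holds genes such as ifet-1, which encodes a repressor. Binding was measured by ChIP-seq with an anti-GFP antibody in strain OP696, genotype unc-119(tm4063) III; wgIs696, whose transgene encodes the protein M03D4.4 fused at its C terminus to GFP and FLAG. Mixed-stage embryos of both sexes were collected 2 h after synchronization by egg bleaching, in 2 biological replicates that form 1 group, so no condition was compared. The labels describe the wgIs696 insertion as targeting M03D4.4, and the state of the endogenous gene was not given in the sources used here. Whole embryos were used, so strong binding in a few cells and weak binding in many cannot be told apart.

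Initiation factors bring the small ribosomal subunit, the initiator tRNA and the mRNA together. eIF4E and eIF4G recognise the capped mRNA, eIF2 carries the initiator tRNA, and eIF2B reloads eIF2 with GTP. The many-subunit complex eIF3 binds the small subunit and helps bring the mRNA to it. Elongation then needs eEF1A, which delivers aminoacyl-tRNA, the eEF1B complex, which reloads eEF1A, and eEF2, which moves the ribosome along by a codon. eIF5A helps the ribosome through stretches that elongate slowly, and early embryos run this machinery largely on products supplied by the mother.

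The DNA around 5 of the binding summits at these genes is shown because these summits carry the results on the eEF1A and eIF5A paralogs and the words that recur among the members. Each sequence is read 5' to 3' on the strand of the gene from the RefSeq WBcel235 assembly, which has the coordinates of ce11, and reaches 50 bp to either side of the summit; that of eef-1G stops at the 5' end of the gene and has 83 bases. Capitals mark TACGCA or its reverse complement TGCGTA, and in the window of eef-1A.1 the word GATGTGCAG. In order, the windows are chrII:8561394-8561494 on the minus strand (iff-2), chrV:10965636-10965718 on the plus strand (eef-1G), chrIII:4475615-4475715 on the minus strand (ifet-1), chrX:7823225-7823325 on the plus strand (eef-1A.2) and chrIII:6972021-6972121 on the minus strand (eef-1A.1).
iff-2: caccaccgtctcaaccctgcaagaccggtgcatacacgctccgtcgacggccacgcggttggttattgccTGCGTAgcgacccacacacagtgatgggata
eef-1G: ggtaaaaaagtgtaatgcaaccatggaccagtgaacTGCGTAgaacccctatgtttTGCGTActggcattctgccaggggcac
ifet-1: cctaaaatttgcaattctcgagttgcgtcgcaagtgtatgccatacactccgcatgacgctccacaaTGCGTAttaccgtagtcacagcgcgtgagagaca
eef-1A.2: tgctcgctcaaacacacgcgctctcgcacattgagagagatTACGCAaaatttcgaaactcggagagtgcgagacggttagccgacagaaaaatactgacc
eef-1A.1: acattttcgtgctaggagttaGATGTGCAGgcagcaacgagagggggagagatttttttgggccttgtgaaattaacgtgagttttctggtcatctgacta

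Of the 41 factor genes 13 (31.7%, 95% Clopper-Pearson interval 18.1 to 48.1) had the summit of a reproducible peak between 1000 bp upstream and 500 bp downstream of their 5' end, against 4.69% of all protein-coding genes. Reproducible is used here for peaks of the authors' deposited list filtered by the irreproducible discovery rate (IDR), a measure of how alike peaks rank. The list was derived from both replicates, and 1418 of its 1423 nuclear peaks were matched in both. Among the initiation factor genes 8 of 33 had one (24.2%, interval 11.1 to 42.3), and among the elongation factor genes 4 of 6 (66.7%, interval 22.3 to 95.7). All 33 were classed by name only, so genes of other function can stand on both sides of the count. The 8 include ifet-1, and the genes without a reproducible peak include eif-4A3 and eif-6. Initiation minus elongation came to -42.4 percentage points (95% Newcombe interval of the difference -68.7 to -2.1), with 6 genes in the elongation class. With only the stronger 711 of the reproducible peaks, eef-1A.2 and eef-2 lost their peaks, elongation fell to 2 of 6 genes against 6 of 33 for initiation, and the difference shrank to -15.2 points (-53.0 to 13.5). Its interval also reached past 0 when each summit was given to its nearest 5' end alone (-31.8 points, -64.5 to 3.37) and without peaks near small RNA genes (-28.8 points, -61.8 to 6.56). The sign of the difference was the same under each of these. The intervals treat genes as independent draws and cover counting error only.

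The longer lists of weaker peaks reached most of the genes. A peak of the pooled relaxed list had its summit in the window of 35 of 41 factor genes (85.4%, interval 70.8 to 94.4), against 38.3% of all protein-coding genes. By class these were 28 of 33 initiation factor genes (84.8%, interval 68.1 to 94.9) and 6 of 6 elongation factor genes (interval 54.1 to 100%). Of the genes with any pooled peak, 13 of 35 factor genes (37.1%, interval 21.5 to 55.1) also had a reproducible one, against 12.2% of all protein-coding genes. The factor genes were thus above the whole set at both levels of the lists; other genes active in most embryonic cells were not set beside them.

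**Figure D1:**
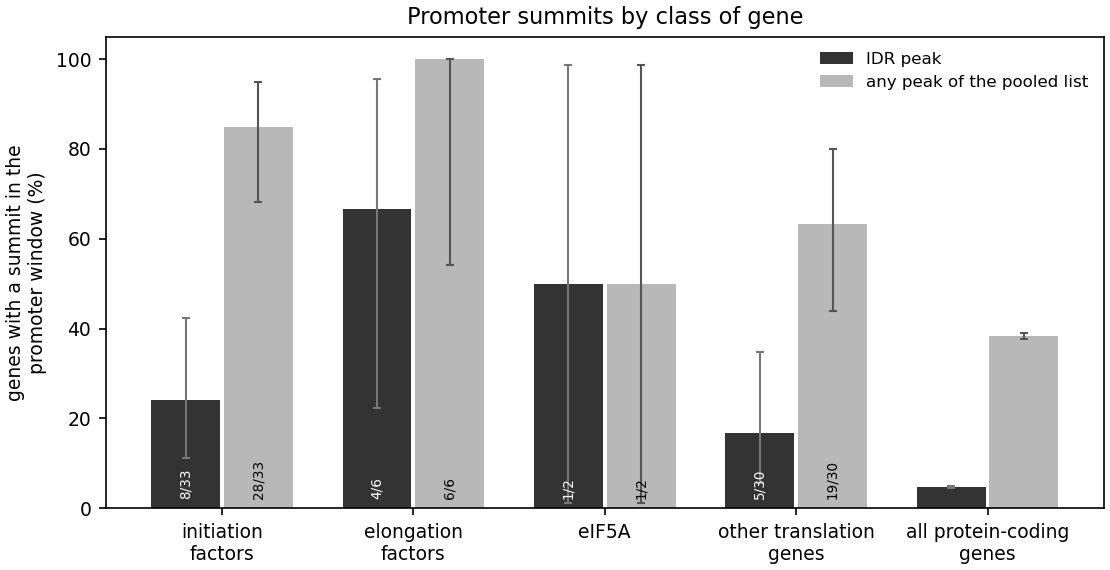
Share of genes (%) with a summit in the promoter window, for reproducible (IDR) peaks and for any peak of the pooled list, by class of gene, with 95% Clopper-Pearson intervals as error bars and counts in the bars. Elongation factor genes reached 66.7% and initiation factor genes 24.2% for reproducible peaks, against 4.69% of all protein-coding genes.

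Of the 8 bound initiation factor genes 5 encode subunits of eIF3, out of 11 eIF3 genes that the names reach (45.5%, interval 16.7 to 76.6). With cif-1 and egl-45, eIF3 genes under other names, it was 5 of 13, and with only the stronger 711 peaks 3 of the 11 were left. The strongest peak of any factor gene was that of eif-3.C (WBGene00001226, chromosome I, 9976426 to 9979662, minus strand), which encodes a core scaffold subunit. Its summit lay at 9979893, 231 bp upstream, where the pooled signal was 663 and the replicates gave 366 (replicate 1) and 295.6 (replicate 2), and it ranked 79 among the 1423 nuclear reproducible peaks. The signal is the value that the authors' caller wrote for the peak, in units that the sources used here do not define. No other coding gene had its window over this summit, which among the eIF3 peaks held also for eif-3.J.

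The other 4 eIF3 peaks were weaker. The peak of eif-3.D (WBGene00001227, chromosome III), whose human counterpart can bind the mRNA cap, had signals of 234.5 pooled, 129 in replicate 1 and 106 in replicate 2, with its summit 216 bp upstream. That of eif-3.I (WBGene00001232, chromosome I), a WD-repeat subunit, had 207 pooled, 99.7 in replicate 1 and 108 in replicate 2, with the summit 205 bp upstream. The lowest were eif-3.J (WBGene00012738), a loosely held subunit, with 163.5 pooled, 86.9 and 78.4 in replicates 1 and 2, and eif-3.E (WBGene00001228) with 156.4 pooled, 85.6 and 67.0. These last lie close to the bottom of the list, whose lowest nuclear peak had a signal of 146.6. The summit of eif-3.J lay 880 bp upstream, inside a 3' UTR exon of the neighbouring gene slc-25A46. The pooled summits of eif-3.C, eif-3.D, eif-3.I and eif-3.E all lay between 205 and 231 bp upstream. Single replicates were less close, with eif-3.I at 126 bp in replicate 1 and eif-3.C at 258 bp in replicate 2, while eif-3.E lay at 225 bp in both.

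The remaining eIF3 genes formed a graded tail below the reproducible list. The gene of the scaffold subunit eif-3.B came next, with signals of 136.2 pooled, 57.9 in replicate 1 and 75.7 in replicate 2, and a summit 227 bp upstream. Then came eif-3.G at 128.7 pooled (79.9 and 49.8 in replicates 1 and 2), eif-3.F at 67.8 and eif-3.H at 41.4. Of the accessory subunit genes, eif-3.K had a peak in the list of replicate 2 alone and eif-3.L had none in any list. The complex was therefore unevenly covered, from rank 79 to no peak at all, although its subunits work together.

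The genes of eIF2 and of its exchange factor eIF2B are too few to place their shares against the 4.69% of all protein-coding genes. None of the 3 eIF2 genes had a reproducible peak (interval 0.0 to 70.8%). Their pooled signals were 72.8 for eif-2gamma, 58.9 for eif-2beta and 47.2 for eif-2alpha, near the median of 60.4 over all 29980 nuclear pooled peaks. Of the 5 eIF2B genes only eif-2Bgamma (WBGene00004090, chromosome II, 6965800 to 6967648, minus strand) had a reproducible peak (20.0%, interval 0.505 to 71.6). It had a pair of summits, at 6968371 and 6968573, lying 723 and 925 bp upstream and 202 bp apart, in an intron of C15F1.5. The nearer peak had signals of 258 pooled and 154 in replicate 1, and the farther 199 pooled and 92.7 in replicate 1. Both overlapped the same peak of replicate 2, with a signal of 123. Its summit lay 890 bp upstream, closer to the farther summit than to the nearer one. Both summits lay within 23 bp of the small nuclear RNA gene sup-39. Binding at eif-2Bgamma and at that RNA gene cannot be told apart.

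Of the cap-binding eIF4E genes, ife-1 to ife-5, only ife-4 (WBGene00002062, chromosome X, 1104212 to 1106251, plus strand) had a reproducible peak. Its signal was 206 pooled, 110.5 in replicate 1 and 95.7 in replicate 2, with the summit 259 bp upstream and no other coding gene in reach. The other eIF4E genes had pooled signals of 109.8 (ife-2), 87.8 (ife-5) and 81.9 (ife-1), and ife-3 had no pooled peak. The signal at ife-4 was thus above those of its paralogs, and its window is the only one of the 5 to hold a reproducible summit. The gene of the scaffold eIF4G, ifg-1, and that of the helicase eIF4A, inf-1, had pooled signals of 51.7 and 66.2.

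The second strongest peak lay at ifet-1 (WBGene00004132, chromosome III, 4471411 to 4475150, minus strand), which encodes an eIF4E-binding protein related to 4E-T that represses maternal mRNAs in the germ line. Its signal was 427 pooled, 218 in replicate 1 and 209 in replicate 2, at rank 187, and its sequence is among those shown above. The summit at 4475665 lay 515 bp upstream of ifet-1 but 253 bp from the 5' end of rps-1, a gene of a small ribosomal subunit protein, and inside an exon of the non-coding RNA gene F56F3.10. A peak can be assigned to ifet-1 only by the window, since another 5' end was nearer.

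Among the elongation factors all of the eEF1A and eEF2 genes had a reproducible summit in their windows. eef-1A.1 (WBGene00001168, chromosome III, 6970026 to 6971712, minus strand) had signals of 293.6 pooled, 146 in replicate 1 and 143 in replicate 2, with its summit 359 bp upstream at 6972071. Its paralog eef-1A.2 (WBGene00001169, chromosome X, 7823654 to 7825769, plus strand) had 205 pooled, 119 in replicate 1 and 96.6 in replicate 2, with the summit 379 bp upstream. The pooled summits of these 2 genes thus lay at nearly the same distance. In replicates 1 and 2 they lay 367 and 339 bp upstream for eef-1A.1, and 379 and 315 bp for eef-1A.2. The 2 genes differed in what lay beside them. The summit of eef-1A.1 fell inside the microRNA gene cel-mir-5549 and 182 bp from the 5' end of rfc-4, which is nearer than its own gene. Binding at eef-1A.1, at rfc-4 and at that microRNA gene cannot be told apart. In contrast, eef-1A.2 had no other coding gene in reach.

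eef-2 (WBGene00001167, chromosome I, 9163531 to 9166952, plus strand), the gene of the translocase eEF2, had signals of 202 pooled, 120.2 in replicate 1 and 83.4 in replicate 2. Its summit lay 2 bp upstream of the 5' end, the closest of all 14 member summits. The eEF1B complex was split. eef-1G (WBGene00008920, chromosome V, 10965719 to 10967922, plus strand), the gamma subunit, had signals of 218.5 pooled, 89.2 in replicate 1 and 127 in replicate 2, with the summit 33 bp upstream. The exchange subunit genes eef-1B.2 and eef-1B.1 had pooled peaks of 81.4 and 78.7, below the reproducible list, and eef-1B.1 had no peak in the list of replicate 2. The strongest replicate 1 peak of eef-1B.2 lay 910 bp upstream and that of replicate 2 165 bp upstream, so the replicates did not place it alike.

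The eIF5A paralogs stood far apart. iff-2 (WBGene00002065, chromosome II, 8559375 to 8561367, minus strand) had the third strongest peak of the factor genes, with signals of 380 pooled, 206 in replicate 1 and 184 in replicate 2, rank 225, and a summit 77 bp upstream at 8561444. iff-1 (WBGene00002064), the paralog known for its role in the germ line, had no peak in the reproducible, pooled or replicate lists. The depth behind the lists was not given, so a peak of iff-1 below their limit of 41.1 in the pooled data was not detectable.

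**Figure D2:**
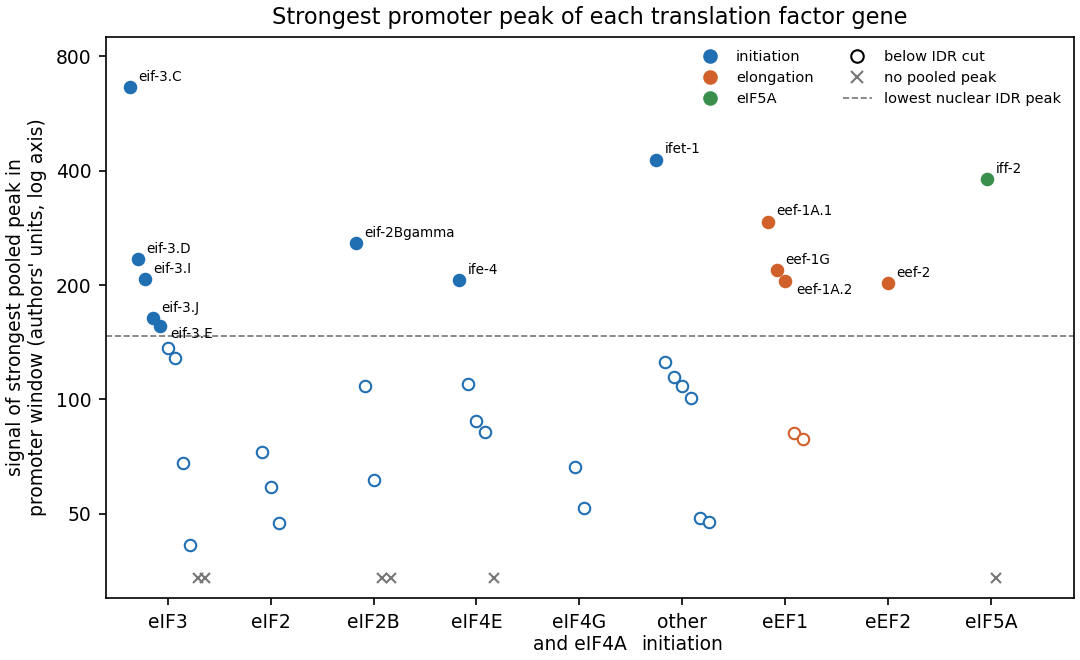
Signal of the strongest pooled peak in the promoter window of each of the 41 factor genes (authors' units, log axis), grouped by complex; filled points are reproducible peaks, open points weaker peaks, crosses genes with no pooled peak, and the dashed line the lowest nuclear reproducible peak at 146.6. The points run from 663 at eif-3.C to 41.4 at eif-3.H, and iff-2 stands against a cross for iff-1.

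The 14 reproducible peaks at the factor genes were of ordinary height. Their median signal was 213 (156.4 to 663), against 211 over all 714 reproducible promoter peaks and 205 over all 1423 nuclear ones, whose highest reached 2198. Of the 14, 9 were above that last median. The peaks of the factor genes were thus about as high as those of other promoters. All 1423 reproducible peaks were also the 1423 strongest pooled peaks, so the reproducible list acted on these genes as a limit on pooled signal.

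Just outside that limit stood eif-3.B at 136.2, and just inside it eif-3.E at 156.4. The 28 factor genes without a reproducible peak comprised 22 with a weaker pooled peak and 6 with none. The 22 signals had a median of 80.0 and ran from 41.4 to 136.2. After eif-3.B and eif-3.G, the strongest were eif-1.A at 125.7, which encodes a scanning factor, eif-2D at 114.9, ife-2 at 109.8, eif-2A at 108.8, eif-2Bepsilon at 108.6, eif-6 at 100.6, ife-5 at 87.8 and ife-1 at 81.9. The other 12 lay between 41.4 and 81.4, so the signals fell off without a gap between bound and unbound genes.

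Several of these weaker peaks were uneven between the replicates. eif-2D had 77.1 in replicate 1 and 30.9 in replicate 2, and eif-6 had 72.2 in replicate 1 and 28.5 in replicate 2. eif-2Bepsilon leaned the other way, with 38.4 in replicate 1 and 71.5 in replicate 2. eif-2A, at 53.0 and 51.5, was even. Of the 6 genes with no pooled peak, 3 had peaks in the replicate lists alone. eif-3.K had one of 23.4 in replicate 2, while ife-3 (29.99 in replicate 1 and 52.1 in replicate 2) and eif-2Bbeta (42.5 and 24.5) had one in each replicate at different places. eif-3.L, iff-1 and eif-2Balpha had none in any list.

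The genes without a reproducible peak had none just beyond their windows either. The nearest reproducible summit to any of them lay 2051 bp from the 5' end of eif-6, and the median distance was 26815 bp, with 22 of 28 over 10 kb away. The closest to the edge on the inside were eif-2Bgamma at 925 bp and eif-3.J at 880 bp upstream. No reproducible summit fell within the body of a factor gene, 0 in all. A window reaching less than 2051 bp to either side would thus have added no factor gene.

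All 14 summits lay upstream of the 5' end, at a median distance of 245 bp, and 10 of them within 400 bp. The window itself reaches 1000 bp upstream and only 500 bp downstream. No matching share over all promoter peaks is set beside these positions, or beside the shared summits and neighbour strands below. They describe the factor genes and mark no difference from other promoters. The annotated 5' end of a worm gene is often the site of trans-splicing, not of transcription start, so distances are to the annotation. Of the 13 bound genes, 8 shared a summit with the window of another coding gene, and in 3 of them, ifet-1, eef-1A.1 and eif-3.D, the other gene's 5' end was nearer. The upstream neighbour stood on the opposite strand in 8 of 13 bound factor genes and in 15 of 28 not bound. A small RNA gene lay within 500 bp of the summit at 2 bound genes, eef-1A.1 and eif-2Bgamma. Counted by peak, this held for 100 of all 714 reproducible promoter peaks.

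**Figure D3:**
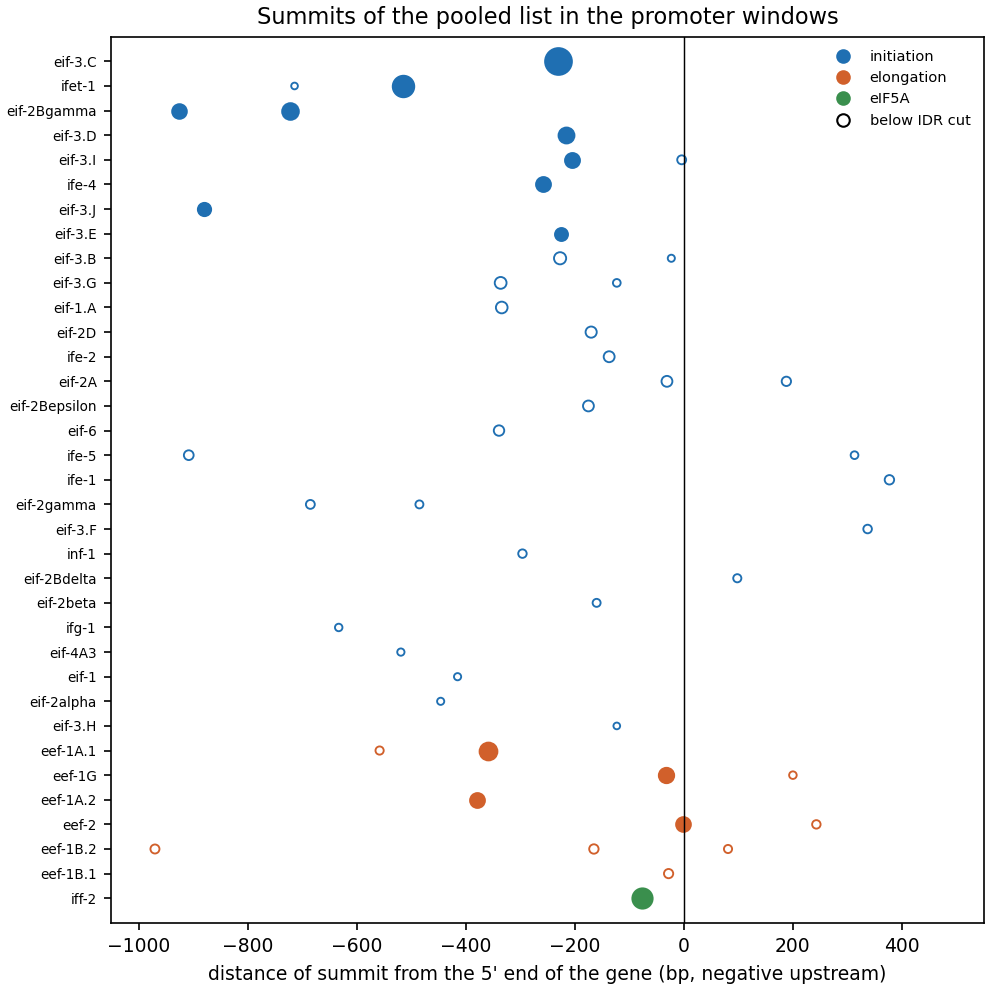
Distance (bp) of every pooled summit from the 5' end of its factor gene, negative upstream, with the area of a point growing with signal; filled points are reproducible peaks and open points weaker ones. All 14 filled points lie upstream of 0, and 10 lie within 400 bp.

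Both replicates held all 14 peaks, matched where 50% of either peak was covered. The pair of peaks at eif-2Bgamma was matched to a single peak of replicate 2, which enters both of their ratios. The signal in replicate 2 over that in replicate 1 had a median of -0.18 on the log2 scale over the 14 peaks, the same as the median of -0.18 over the 1418 reproducible peaks matched in both (SD 0.52). It ran from -0.53 at eef-2 to 0.51 at eef-1G, and 11 of the 14 peaks were higher in replicate 1. The median shift between the replicates at these genes was thus that of the list as a whole, and eef-1G and eef-2 lay farthest from each other. Ranking each replicate alone gave the same count: among the 1423 strongest peaks of replicate 1, 13 of 41 factor genes had a summit, against 4.56% of all protein-coding genes, and among those of replicate 2 also 13 of 41, against 4.45%. In replicate 2 the weakest gene, eif-3.E, at rank 1825, gave way to eif-3.B at rank 1301. Pooled signals were 0.922 to 1.02 times the sum of the 2 replicates, so a pooled value is close to a sum and not to a mean.

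**Figure D4:**
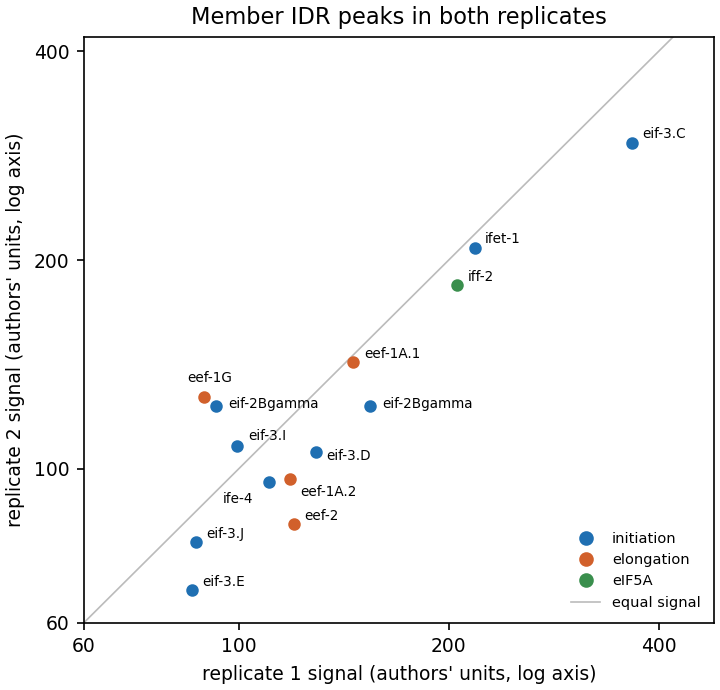
Signal of the 14 reproducible peaks at factor genes in replicate 2 against replicate 1 (authors' units, log axes), with a line of equal signal. Of the 14 points, 11 lie on the side of replicate 1, and eef-1G lies farthest toward replicate 2 at 0.51 on the log2 scale.

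The words under the summits were compared with those of the other 603 reproducible promoter peaks away from small RNA genes. The 14 member peaks were not filtered in this way, so the 2 sets are unlike. The peaks of eef-1A.1 and eif-2Bgamma, within 500 bp of small RNA genes, were kept among the 14. Among the 603, the leading words of 6 letters were CGCGCA, then GCGCAC, and then CGCACA, and all of them overlap. Within 50 bp of the summit and on either strand, CGCGCA stood at 3 of 14 member peaks (21.4%) and 19.6% of those 603, GCGCAC at 1 of 14 (7.14%) and 18.6%, and CGCACA at 1 of 14 and 18.7%. The only GCGCAC and 1 of the 3 CGCGCA were at the nearer peak of eif-2Bgamma, beside the small nuclear RNA gene sup-39. With 14 member peaks, no share of these words can be placed against that of the 603, whether it was near (CGCGCA) or lower (GCGCAC and CGCACA). The words were also chosen as the leading ones of the 603 peaks. Windows of 101 bases placed 200 bp upstream of every coding gene held these words in 2.40%, 2.15% and 2.75%.

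TACGCA, with its complement TGCGTA, stood at 6 of 14 member peaks (42.9%): iff-2, eef-1G, ifet-1, eef-1A.2, eif-3.I and eif-3.J. It stood at 50 of the 603 other promoter peaks (8.29%), at 89 of all 1423 reproducible peaks (6.25%) and at 469 of the 19973 windows upstream of coding genes (2.35%). The word was picked after the member windows had been seen, and of the 2080 words of 6 letters 3 were in at least as many of them, itself included; the others were ACGCAA and then CGCAAA, with 7 the most for any word. Its frequency is therefore a description of these 14 windows. With the summits of replicate 1 in place of the pooled ones it stood at 5 of the member peaks, and with those of replicate 2 also at 5. In the sequences shown above eef-1G carries it in 2 places and iff-2, ifet-1 and eef-1A.2 in 1 each.

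A longer word, CTGCACATC with its complement GATGTGCAG, also picked after the windows were seen, stood at the 2 peaks of eef-1A.1 and eef-2 (14.3% of 14). The window of eef-1A.2, the other eEF1A gene, did not hold it. The eef-1A.1 summit lay inside the microRNA gene cel-mir-5549, whereas peaks near small RNA genes were left out of the 603. The word stood at 6 of the 603 other promoter peaks (0.995%), 9 of all 1423 (0.632%) and 15 of the 19973 upstream windows (0.0751%). Like that of TACGCA, its frequency only describes these 14 windows. In base composition the member windows were close to the rest of the reproducible list: their GC content had a median of 48.5% (31.7 to 60.4), against 50.5% over all reproducible peaks, and 33.7% over the windows upstream of all coding genes.

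Genes that act beside these factors, such as release factors, poly(A)-binding proteins and translational repressors, were taken from a list of 31 names, of which 30 matched a gene. Of these 5 had a reproducible peak (16.7%, interval 5.64 to 34.7), against 4.69% of all protein-coding genes, and 19 had a pooled one (63.3%, interval 43.9 to 80.1), against 38.3%. The list was chosen with earlier results of these data known, so both shares describe this list only. The first count fell to 3 with a window of 500 bp upstream, and also with each summit given to its nearest 5' end alone. The strongest was at atx-2, which encodes the ataxin-2 RNA-binding protein, with signals of 1155 pooled, 621 in replicate 1 and 537 in replicate 2, at rank 14 and 64 bp upstream. The release factor gene erfa-3 followed with 453 pooled (243 and 203 in replicates 1 and 2), then larp-1 with 411 (234 and 175), pab-2, a poly(A)-binding protein gene, with 260.1 (147 and 109.8), and abcf-2 with 208.5 (93.1 and 111). Of the 5, only pab-2 had no other coding gene with its window over the summit.

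Some initiation factors carry names that the rule does not reach, and these were looked up after the other values were known. drr-2, an eIF4H gene, had a reproducible peak with a signal of 247 at 136 bp upstream, shared with set-16. cif-1 (eIF3m) and iffb-1 (eIF5B) had pooled peaks of 88.6 and 71.8, and egl-45 (eIF3a) had none, so 1 of these 4 had a reproducible peak. No peak list of another tagged protein was analysed here. Binding of M03D4.4 and chromatin that is recovered whichever protein carries the tag cannot be told apart in these data.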

How the data were processed

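ChIP-seq peak lists of 2 biological replicates were used. Per the file headers, the authors called relaxed peaks against a control on each replicate and on the pooled alignments, and derived an IDR list from them; the sources used here do not name the aligner or caller, or say how the signal column was scaled. The deposited values used were the signal of each peak and its summit, which the authors' peak caller gave as an offset from the peak's start. Depth is unknown, and the number of reads behind a peak cannot be given. Each relaxed list has 30000 lines.

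Summits were set against the 5' ends of Ensembl release 115 gene models (WBcel235, the same assembly as ce11), from 1000 bp upstream to 500 bp downstream, on nuclear chromosomes. A gene's values are those of its strongest summit, and every bound gene and the 10 strongest others are named. Replicate peaks were matched where the overlap covered 50% of either peak. Shares carry 95% Clopper-Pearson intervals, and the class difference a Newcombe interval. Words were counted within 50 bp of a summit on both strands. The code for windows, offsets and matching was tested on simulated peaks. Python 3.11.15, pandas 2.3.3, SciPy 1.17.1, statsmodels 0.14.6 and Matplotlib 3.10.9 were used. The genes, the list of neighbouring functions and the comparison were chosen with earlier results of these data known; TACGCA, CTGCACATC and the factors under other names were chosen after the windows were seen, among several words of differing length. No enrichment test was made. Alternatives covered the window, the nearest gene, the strongest 711 peaks of the list, small RNA genes and each replicate alone.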

Additional observations from a re-analysis of the deposited data

How the results depend on the processing

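No recomputed value reversed direction, and 8 counts or offsets moved by over the limits set for them; the class difference stayed within its wide interval but shrank under several alternatives. With only the stronger 711 reproducible peaks, elongation factor genes with a peak numbered 2 and eIF3 genes 3, and 9 factor genes were left, against 2.59% of all protein-coding genes. With the window cut to 500 bp upstream, initiation factor genes numbered 5, the neighbouring translation genes 3, the factor genes 10 (against 3.63% of all genes), and the median offset was -221 bp. Giving each summit to its nearest 5' end alone left 10 factor genes (against 3.45%), without eef-1A.1, eif-3.D and ifet-1, and 3 neighbouring translation genes. Leaving out peaks within 500 bp of small RNA genes left 11 factor genes (against 4.11%), without eef-1A.1 and eif-2Bgamma, and put the median offset at -226 bp. Leaving out each replicate in turn gave 13 factor genes both times, with a median offset between -258.5 and -244.5 bp; eif-3.B took the place of eif-3.E without replicate 1. Initiation minus elongation ran from -51.5 percentage points (500 bp upstream) to -15.2 (stronger 711 peaks), and its interval held 0 with the stronger 711 peaks, the nearest 5' end alone and small RNA peaks left out. Counting eIF5A with elongation gave -38.3 points and with initiation -41.0. Why values moved was not tested beyond the fewer peaks or shorter window that each alternative uses. The small classes and the unknown depth limit every share.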
